A study of Mus musculus with 6 samples.

Results

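The pericellular proteases and their inhibitors were followed in C2C12 myoblasts that lacked the RNA-binding protein Hnrnpa2b1. The 9 genes were *Fap*, *Mmp2*, *Mmp11*, *Mmp14*, *Mmp19*, *Mmp23*, *Timp1*, *Timp2* and *Timp3*, out of 46078 genes listed and 14828 tested. They were chosen by name and by their values in these libraries, since *Fap* was lost and *Mmp23* gained in the knockout. The KO to WT differences of the members are therefore given as a description with no p-value, and whether a member passed the threshold of the fit over all genes is stated only to place it, not as support.

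C2C12 cells are cultured mouse muscle precursors that exit the cell cycle and form multinucleated myotubes once serum is withdrawn. The KO group was C2C12 with *Hnrnpa2b1* disrupted by CRISPR-Cas9, the WT group was C2C12 with the gene intact, and both were differentiated for 48 hr with reduced serum and insulin-transferrin-selenium. Each genotype had 3 libraries, KO1–3 and WT1–3, of total RNA depleted of ribosomal RNA, with 33605258 to 40558740 reads counted on genes. The methods describe 3 clones of each genotype, isolated with cloning rings after puromycin selection, without stating which clone gave which library, so that genotype and differences between clones cannot be told apart. A scrambled guide is named for the control cells of the protein blots, and whether the WT libraries came from such cells is not stated. RNA of the targeted gene did not separate the genotypes (159 to 249 CPM in KO and 225 to 252 in WT), and loss of the protein is not measured by these counts. The muscle label was checked with 12 markers, all of which were tested, and their summed level was 3264 to 6177 TPM in KO and 4135 to 5245 TPM in WT. CPM here are read counts relative to the library total after TMM scaling, and TPM are the StringTie levels, which also correct for transcript length.

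Matrix metalloproteinases (MMPs) are zinc-dependent endopeptidases that are secreted or held at the cell surface as inactive precursors and cleave collagens, other matrix proteins, growth factors and receptors. Tissue inhibitors of metalloproteinases (TIMPs) bind their active sites, and TIMP2 also bridges proMMP2 to MMP14 on the membrane, where a neighbouring MMP14 molecule activates it. FAP is a membrane serine protease of the dipeptidyl peptidase family, best known from activated fibroblasts, and in muscle pericellular proteolysis accompanies the migration and fusion of myoblasts and the remodelling of the matrix around fibers.

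*Fap* RNA was nearly absent from every KO library. *Fap* (ENSMUSG00000000392; chr2:62500943-62574075, minus strand, GRCm38) held 10, 11 and 9 reads in KO1–3 and 806, 604 and 1183 in WT1–3. In CPM this was 0.280, 0.252 and 0.220 in KO and 23.3, 18.4 and 31.9 in WT, so that the lowest WT library stood far above the highest KO library. The means were 0.251 ± 0.0301 CPM in KO and 24.5 ± 6.82 CPM in WT (SD, n = 3), a 97.9-fold higher level in WT and a log2 fold change of −6.60 (standard error 0.30). Pooled over libraries, 2593 WT reads stood against 30 KO reads, a scaled ratio of 99.6 with an exact 95% interval of 69.6 to 148 that covers counting error only. In these bulk samples, fewer cells of a type and less RNA per cell cannot be told apart.

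*Mmp23*, a small membrane-anchored MMP that is released when a convertase cleaves it, had the opposite pattern. *Mmp23* (ENSMUSG00000029061; chr4:155650655-155653384, minus strand) held 224, 420 and 289 reads in KO1–3 and 4 reads in each WT library. Its CPM were 6.27, 9.62 and 7.06 in KO and 0.116, 0.122 and 0.108 in WT, with all KO libraries far above all WT libraries. The means were 7.65 ± 1.75 CPM in KO and 0.115 ± 0.00707 CPM in WT (SD, n = 3), 66.4-fold higher in KO, with a log2 fold change of 6.02 (standard error 0.34). The pooled 933 KO and 12 WT reads gave a scaled ratio of 67.5 (exact 95% interval 38.5 to 131, counting error only). *Mmp23* was listed at 0 TPM in WT2 and WT3 and at 0.0984 TPM in WT1, so no fold is given on that scale. *Mmp23* passed the filter on low counts through the KO libraries only, with 0 WT libraries at its limit, and so had to differ. *Fap* passed through the WT libraries, with 2 KO libraries at the limit or above.

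*Mmp14*, the membrane-type MMP that activates proMMP2 and cleaves fibrillar collagen, was higher in every KO library. *Mmp14* (ENSMUSG00000000957; chr14:54431612-54441265, plus strand) stood at 405, 386 and 504 CPM in KO1–3 and 163, 210 and 187 CPM in WT1–3. The lowest KO library was above the highest WT library by a wide margin. The means were 432 ± 63.3 and 187 ± 23.4 CPM (SD, n = 3), 2.31-fold higher in KO, with a log2 fold change of 1.21 (standard error 0.17). Among the 9 genes it had the lowest ratio of highest to lowest library within KO after *Fap*, 1.31-fold.

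Of the secreted MMPs, *Mmp2* and *Mmp11* moved in opposite directions. *Mmp2*, which encodes gelatinase A (ENSMUSG00000031740; chr8:92827328-92853417, plus strand), stood at 342, 596 and 784 CPM in KO1–3 and 304, 257 and 273 CPM in WT1–3. The WT libraries lay close together, whereas KO1 was only slightly above them and KO3 was 2.29-fold above KO1. The means were 574 ± 222 and 278 ± 24.0 CPM (SD, n = 3), 2.06-fold higher in KO, with a log2 fold change of 1.05 (standard error 0.28). In TPM the ranges overlapped, with 68.6 in KO1 just below 68.7 in WT1. *Mmp2* was the member just inside the threshold, and its log2 fold change lay between 0.76 without KO3 and 1.30 without KO1. It fell outside the threshold when any 1 library other than KO1 was left out, and was inside it in 5 of 14 settings.

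*Mmp11*, or stromelysin 3, is unusual in being activated by furin inside the cell. *Mmp11* (ENSMUSG00000000901; chr10:75923222-75932502, minus strand) stood at 73.6, 40.8 and 51.4 CPM in KO1–3 and 127, 198 and 134 CPM in WT1–3. The highest KO library was well below the lowest WT library. The means were 55.3 ± 16.7 and 153 ± 39.3 CPM (SD, n = 3), 2.77-fold higher in WT, with a log2 fold change of −1.47 (standard error 0.26).

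*Mmp19*, a secreted MMP that cleaves basement membrane components, overlapped between the genotypes. *Mmp19* (ENSMUSG00000025355; chr10:128790953-128800824, plus strand) stood at 24.3, 21.7 and 32.8 CPM in KO and 9.63, 23.8 and 10.4 CPM in WT1–3. WT2 lay within the KO range and the other WT libraries were below it. The log2 fold change was 0.85 (standard error 0.36), and lay between 0.61 and 1.38 with each library left out, highest without WT2. *Mmp19* was outside the threshold in the main fit and inside it in 2 of 14 settings. The annotation places *Tmem198b* on the opposite strand over this gene, at 12.8 CPM in KO and 9.36 CPM in WT, and whether the counting used strand is not given in the sources used here.

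Each TIMP had a positive log2 fold change, and none of the 3 passed the threshold, which does not show that they were unchanged. Of the 14 settings, *Timp3* was inside the threshold in 3, *Timp1* in 2 and *Timp2* in 0. *Timp2*, the inhibitor that takes part in proMMP2 activation (ENSMUSG00000017466; chr11:118301069-118355740, minus strand), stood at 550, 431 and 419 CPM in KO1–3 and 366, 337 and 390 CPM in WT1–3. Its ranges did not overlap, but the gap between KO3 and WT3 was narrow and the means, 467 ± 72.0 and 364 ± 26.7 CPM (SD, n = 3), differed 1.28-fold (log2 fold change 0.36, standard error 0.16). The annotation places the protein-coding gene *Cep295nl* over *Timp2* on the same strand, and the level of *Cep295nl* was not compared.

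*Timp1*, a soluble inhibitor that lies within *Syn1* on the opposite strand (ENSMUSG00000001131; chrX:20870166-20874735, plus strand), stood at 131, 50.5 and 113 CPM in KO1–3 and 56.1, 73.8 and 51.7 CPM in WT1–3. KO2 was the lowest of all 6 libraries and KO1 and KO3 were the highest. The log2 fold change was 0.70 (standard error 0.33), and lay between 0.43 and 1.02 with each library left out, highest without KO2. *Syn1* itself reached at most 1.15 CPM in any library.

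*Timp3*, the inhibitor that binds to the extracellular matrix, lies within *Syn3* on the opposite strand (ENSMUSG00000020044; chr10:86300372-86349506, plus strand). It stood at 112, 77.8 and 180 CPM in KO1–3 and 36.1, 87.4 and 33.4 CPM in WT1–3. WT2 was above KO2, so the ranges overlapped, although the log2 fold change of 1.24 (standard error 0.43) was close to that of *Mmp14*. *Timp3* was the member just outside the threshold, and its log2 fold change lay between 0.87 and 1.82 with each library left out, highest without WT2. *Syn3* reached at most 0.610 CPM.

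**Figure D1:**
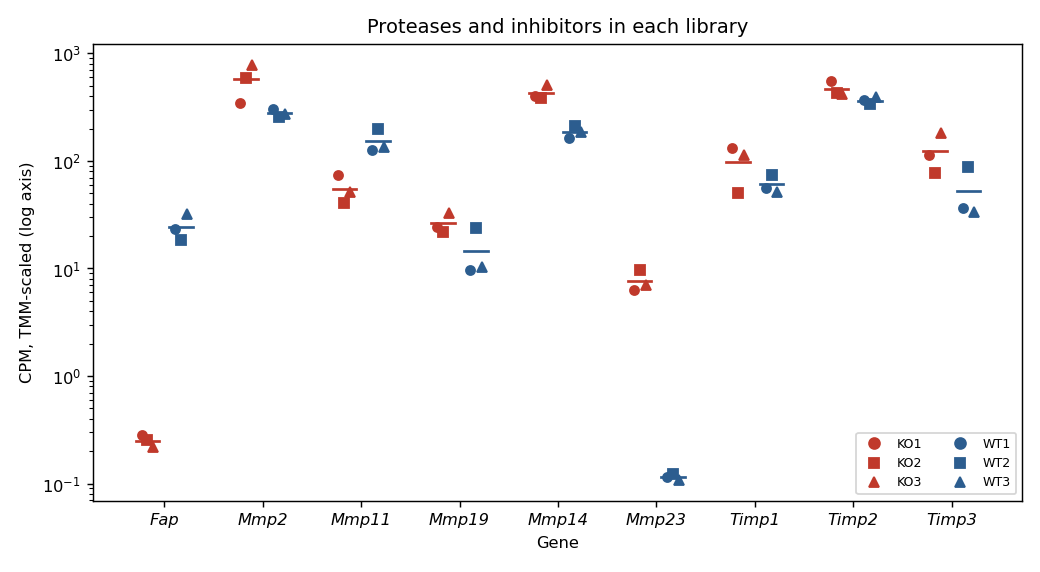
TMM-scaled CPM of the 9 genes in each library (log axis; red KO, blue WT; circles, squares and triangles are replicates 1, 2 and 3; lines are means of 3). *Fap* and *Mmp23* are far apart between the genotypes, whereas *Mmp19*, *Timp1* and *Timp3* overlap.

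Across the 9 genes, 5 were called by edgeR's quasi-likelihood test at an adjusted p under 0.05, of which 3 were higher in KO (*Mmp2*, *Mmp14* and *Mmp23*) and 2 lower (*Fap* and *Mmp11*). Of all 14828 genes tested, 22.7% were called, 12.1% higher and 10.6% lower, and since the members were chosen on this contrast nothing is read from their count. The CPM ranges of the genotypes did not overlap for 6 of the 9 genes, against 44.3% of all genes tested. The log2 fold change was positive for 7 and negative for 2, with a median of 0.85, against 0.03 over all genes tested.

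**Figure D2:**
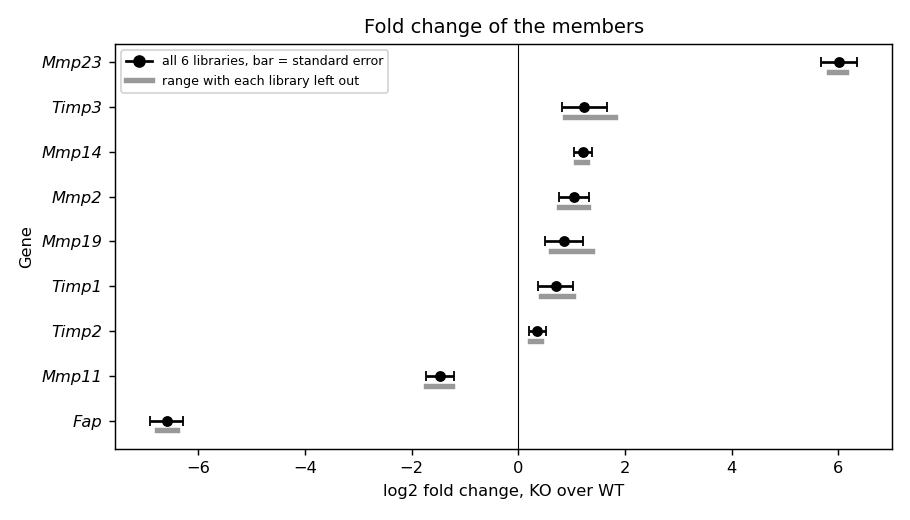
Log2 fold change (KO over WT) of the 9 genes from edgeR, with standard errors (black) and the range with each library left out (grey). *Mmp23* at 6.02 and *Fap* at −6.60 stand apart from the other 7 genes, which lie between −1.47 and 1.24.

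Within a genotype the 9 genes did not vary alike. WT2 was at one end of the WT range for every member, although the 4 reads of *Mmp23* in each WT library carry no order beyond scaling. It was the highest WT library for *Mmp11*, *Mmp14*, *Mmp19*, *Timp1* and *Timp3*, and the lowest for *Fap*, *Mmp2* and *Timp2*. Among the KO libraries, KO3 was the highest for *Mmp2*, *Mmp14*, *Mmp19* and *Timp3*, and KO2 the lowest for *Mmp11*, *Mmp14*, *Mmp19*, *Timp1* and *Timp3*. The widest ratio between libraries of the same genotype was 2.61-fold, for *Timp3* in WT, and 2.59-fold for *Timp1* in KO.

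Compared per length, in TPM, the order of the genes differed between the genotypes. In KO the mean level fell in the order *Mmp2* (131 ± 64.7 TPM), *Mmp14* (112.5 ± 30.7), *Timp2* (85.4 ± 8.71), *Timp1* (77.0 ± 34.3), *Timp3* (32.4 ± 17.1), *Mmp11* (16.4 ± 4.20), *Mmp19* (6.82 ± 1.98), *Mmp23* (3.88 ± 1.02) and *Fap* (0.0444 ± 0.0134). Neighbours in this order whose ranges did not overlap were *Mmp14* and *Timp2*, *Mmp11* and *Mmp19*, *Mmp19* and *Mmp23*, and *Mmp23* and *Fap*. In WT the order was *Timp2* (67.1 ± 1.96 TPM), *Mmp2* (61.6 ± 6.29), *Mmp14* (48.3 ± 7.50), *Timp1* (47.5 ± 11.5), *Mmp11* (46.9 ± 14.0), *Timp3* (13.5 ± 8.62), *Fap* (5.94 ± 1.35), *Mmp19* (3.99 ± 2.29) and *Mmp23* (0.0328 ± 0.0568). There the ranges were apart only between *Mmp2* and *Mmp14*, *Mmp11* and *Timp3*, and *Mmp19* and *Mmp23*. *Mmp11* thus lay among the more abundant members in WT, level with *Mmp14* and *Timp1*, and below all 3 TIMPs by mean in KO.

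The summed level of the 5 MMPs was 192, 244 and 376 TPM in KO1–3 and 153, 186 and 143 TPM in WT1–3. Every KO sum was above every WT sum, but KO1 exceeded WT2 only slightly. This separation holds for these 5 MMPs only. The 18 other MMPs listed below summed to 9.69 to 11.3 TPM in KO, and to more in every WT library, up to 24.7 TPM. With them added, KO1 fell below WT2, so the genotypes overlapped. The 3 TIMPs summed to 213, 132 and 239 TPM in KO and 123, 148 and 113 TPM in WT, with KO2 below WT2. The ratio of the sum of the 5 MMPs to the TIMP sum was 1.25, 1.25 and 1.27 in WT1–3 and spread over 0.899, 1.85 and 1.58 in KO1 to KO3. The WT libraries were thus nearly equal in this ratio while the KO libraries lay on both sides of them.

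The makeup of this pool of 5 MMPs was then compared. It leaves out the other MMPs, among them *Mmp15* at 4.35 TPM in KO and 18.6 TPM in WT. *Mmp2* and *Mmp14* together made up 89.3% ± 3.66 of the summed MMP TPM in KO and 68.8% ± 5.50 in WT (SD, n = 3), and *Mmp11* made up 6.63% ± 3.33 in KO and 28.8% ± 4.50 in WT. For both shares the genotypes' ranges were apart, with *Mmp11* at most 10.5% in KO and at least 25.7% in WT. *Mmp23* contributed 1.49% ± 0.397 of the KO pool. The ratio of *Mmp14* to *Timp2*, the activator and the bridging inhibitor of proMMP2, was 1.02 to 1.69 in KO and 0.619 to 0.874 in WT. The ratio of *Mmp2* to *Timp2* overlapped, at 0.739 to 2.26 in KO and 0.841 to 0.999 in WT. These are sums and ratios of RNA of genes chosen on this contrast and carry no test.

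**Figure D3:**
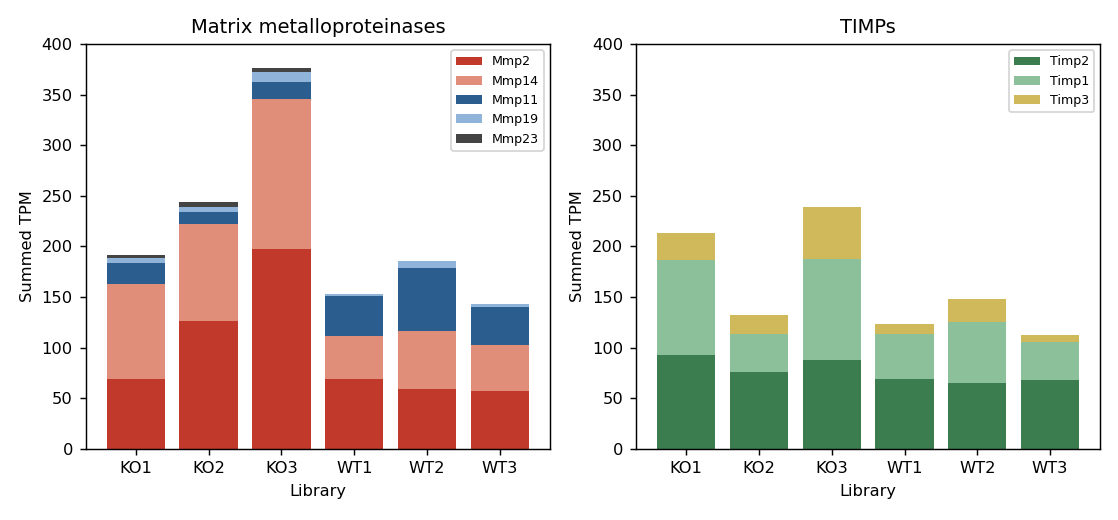
Stacked TPM of the 5 MMPs (left) and the 3 TIMPs (right) in each library, both axes from 0. The *Mmp11* segment (dark blue) takes 25.7% to 33.9% of the WT columns and 4.58% to 10.5% of the KO columns, and the KO columns differ among themselves more than the WT columns do.

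The position of *Fap* and *Mmp23* was not used to choose them, and the 4 nearest tested genes on each side were read from the same fit. On the low-coordinate side of *Fap*, *Itgb6*, *Rbms1*, *Tank* and *Psmd14* had log2 fold changes of 0.45, −0.02, −0.37 and −0.15, none of them called. These genes are distant, from 701 kb (*Psmd14*) to 1778 kb (*Itgb6*) away. On the other side the next tested genes, *Ifih1* and *Kcnh7*, were both called lower. The following ones, *Gm13577* (0.31, 1901 kb away) and *Grb14* (0.20, 2338 kb away), were not called. In all, 2 of the 8 neighbours were lower, against 10.6% of all genes tested. They lie next to each other and are the tested genes nearest to *Fap*.

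*Ifih1*, the cytosolic sensor of double-stranded RNA also called MDA5, has its nearer end 21.7 kb from *Fap* (chr2:62595798-62646255, minus strand). It stood at 0.504, 1.24 and 0.0976 CPM in KO1–3 and 5.84, 4.27 and 6.82 CPM in WT1–3. Its fitted log2 fold change was −3.19 (standard error 0.70), and the call was lost without WT1 or WT3. *Kcnh7*, a voltage-gated potassium channel gene (chr2:62693414-63184287), lies 119 kb from *Fap* and held 0, 0 and 5 reads in KO and 23, 62 and 52 in WT. Its fitted log2 fold change was −4.88 (standard error 0.95). The pooled WT to KO ratio was 31.6 (exact 95% interval 13.2 to 98.8, counting error only). *Fap*, *Ifih1* and *Kcnh7* are thus 3 consecutive tested genes with far fewer reads in KO. Both neighbours passed the filter on low counts through the WT libraries, with 2 KO libraries at its limit or above for *Ifih1* and 0 for *Kcnh7*, which therefore had to differ, so neither call is taken as support and the count of 2 lower neighbours is a description. The untested protein-coding genes around them were looked up after these values were seen. *Gca*, between *Ifih1* and *Kcnh7*, had 0 KO and 4 WT reads in total, *Dpp4*, the closest relative of *Fap*, had 2 and 18 (12 of them in WT2), and *Gcg* had none in any library. Farther out, *Tbr1* had 18 KO and 9 WT reads, *Slc4a10* 5 and 7, and *Fign* 3 and 2.

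Around *Mmp23* the fold changes were far smaller than its own. *Nadk* (0.85, adjusted p = 0.0210 by edgeR, 0.000182 to 0.145 over the alternatives) and *Cdk11b* (0.58, adjusted p = 0.0216 by edgeR, 0.0148 to 0.182 over the alternatives) were higher in KO, and the calls were kept in 4 and 3 of the 6 leave-one-out fits, lost without WT1 or WT3 and, for *Cdk11b*, also without WT2. *Nadk* makes NADP and *Cdk11b* is a cyclin-dependent kinase. Those 2 of 8 stand against 12.1% of all genes tested. *Cdk11b* ends 0.717 kb from *Mmp23*. *Mib2*, 1.29 kb away on the other side, had a log2 fold change of 0.00, with 81.8 to 96.0 CPM in the 6 libraries. *Slc35e2* (0.51), *Gm16023* (1.14), *Ssu72* (−0.33) and *1500002C15Rik* (0.16) were also not called.

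**Figure D4:**
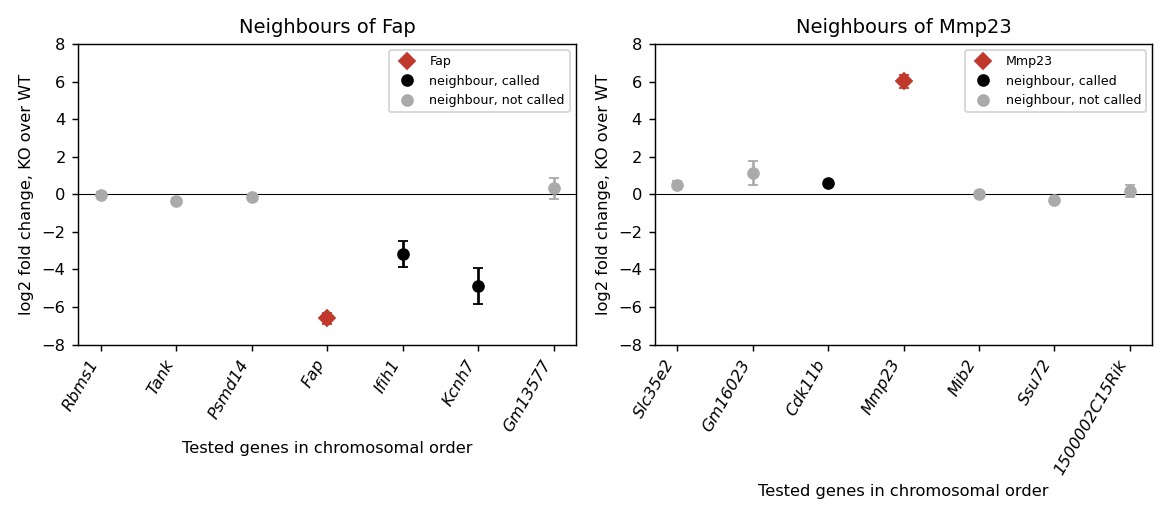
Log2 fold change (KO over WT, with standard error) of *Fap* and *Mmp23* (red diamonds) and of the 3 nearest tested genes on each side in chromosomal order (black, called; grey, not called). *Ifih1* at −3.19 and *Kcnh7* at −4.88 accompany *Fap*, whereas the neighbours of *Mmp23* lie between −0.33 and 1.14.

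The genes whose log2 CPM followed *Fap* most closely over the 6 libraries, among 5263 genes whose mean log2 CPM was 5 or more, were *Rrn3* (Pearson's r = 0.997), *Sptbn1* (0.997) and *Neurl4* (0.996). Their differences were far smaller, with log2 fold changes of −0.42, −0.90 and −0.46. For *Mmp23* they were *Junb* (r = 0.999, log2 fold change 1.58), *Cyp1b1* (0.995, 2.75) and *Crip2* (0.994, 1.63). The points share the split between the genotypes, so that any gene with tight groups scores high, and Spearman's rho for these genes lay between 0.714 and 1.

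Promoter sequences, here the 250 bases before the RefSeq start site on GRCm38.p6, are shown for the called members with an entry, *Mmp11*, *Mmp14* and *Mmp23*, because the latter pair was higher and the first lower in KO. *Timp1*, *Timp2* and *Timp3* also had an entry. No promoter is shown for *Fap*, *Mmp2* and *Mmp19*. Capitals mark the matches to 4 motifs searched on both strands with overlaps allowed: the E-box CANNTG, which MyoD-family factors can bind, the AP-1 motif TGANTCA, the GC box GGGCGG and the TATA box TATAAA. The windows are chr10:75932503-75932752 (minus strand), chr14:54431348-54431597 (plus strand) and chr4:155653385-155653634 (minus strand, the first of 2 entries), each printed 5′ to 3′.
Mmp11: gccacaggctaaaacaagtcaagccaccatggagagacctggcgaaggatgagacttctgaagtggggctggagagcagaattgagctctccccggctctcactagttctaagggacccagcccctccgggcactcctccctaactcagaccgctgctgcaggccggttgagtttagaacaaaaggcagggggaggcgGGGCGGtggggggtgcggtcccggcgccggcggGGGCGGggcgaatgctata
Mmp14: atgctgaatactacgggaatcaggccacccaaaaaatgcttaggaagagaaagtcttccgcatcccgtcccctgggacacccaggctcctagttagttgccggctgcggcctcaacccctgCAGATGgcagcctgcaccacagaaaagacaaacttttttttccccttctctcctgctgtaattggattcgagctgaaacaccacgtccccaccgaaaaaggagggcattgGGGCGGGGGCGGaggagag
Mmp23: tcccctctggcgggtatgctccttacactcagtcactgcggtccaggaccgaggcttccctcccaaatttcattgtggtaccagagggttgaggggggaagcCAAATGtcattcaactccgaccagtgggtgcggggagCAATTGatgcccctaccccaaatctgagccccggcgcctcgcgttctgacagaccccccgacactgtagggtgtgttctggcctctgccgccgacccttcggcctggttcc

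The *Mmp11* window held 2 GC boxes and no E-box, the *Mmp14* window 2 GC boxes and 1 E-box, and the *Mmp23* window 2 E-boxes and no GC box. Over all 6 members with an entry, an E-box was found in *Mmp14*, *Mmp23*, *Timp2* and *Timp3*, against 66.0% of 27025 promoters of the same length, and a GC box in all but *Mmp23*, against 32.9%. Neither AP-1 (6.87% of all promoters) nor TATA (13.0%) letters occurred in any of the 6. The windows held 14 (*Mmp11*), 10 (*Mmp14*), 13 (*Mmp23*), 6 (*Timp1*), 21 (*Timp2*) and 18 (*Timp3*) CpG dinucleotides, against a median of 6 over all promoters. A match is a stretch of letters and says nothing of binding.

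The wider protease system was described with 10 lists holding 102 genes, of which 67 were tested. edgeR called 28 of the 67 (41.8%), 14 higher and 14 lower in KO, against 22.7% of all genes tested, and the median log2 fold change was 0.11. Of all genes tested, 12.1% were called higher and 10.6% lower, and the counts of each list below stand against these shares. The lists were chosen with earlier results of these data known, so these counts are a description and no excess is read from them. With each library left out in turn, 10 of the 28 were called every time. Of the 28, 26 passed the filter on low counts in both genotypes, and *Pcsk6* and *Adamts9* in 1 only. Without WT1, WT2 or WT3 alone, 10, 13 and 11 of the 28 calls were kept.

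Among the other MMPs, 5 of 18 were tested, 1 was higher and 1 lower. *Mmp15*, a membrane-type MMP like *Mmp14*, stood at 40.2, 30.8 and 16.6 CPM in KO1–3 and 113, 107 and 141 CPM in WT1–3, and fell by 2.05 on the log2 scale (standard error 0.30, adjusted p = 0.00513 by edgeR, 1.36e-17 to 0.0258 over the alternatives). The membrane-type MMPs thus went in both directions, *Mmp14* up and *Mmp15* down. *Mmp24* rose by 1.39 (adjusted p = 0.0294 by edgeR, 0.0305 to 0.124 over the alternatives) at 0.860 CPM in KO and 0.324 CPM in WT, a call lost without KO3 or any 1 WT library. *Mmp9*, the other gelatinase, did not pass the filter, with 0.137 to 0.588 CPM in KO and 0.189 to 0.289 CPM in WT. *Reck*, a membrane-anchored MMP inhibitor and the only tested gene among the other 4 inhibitors, had a log2 fold change of 0.91 and ranges that did not overlap (adjusted p = 0.0515 by edgeR, 0.0135 to 0.200 over the alternatives).

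Of the prolyl peptidases related to *Fap*, 5 of 8 were tested, with 3 higher and 1 lower. *Dpp7* rose by 0.95, *Dpp9* by 0.50 and *Prep* by 0.39, and *Prepl* fell by 0.76 on the log2 scale. *Prep* and *Prepl* were at 183 and 62.8 CPM in KO and 140 and 106 CPM in WT. None of the 4 calls held in every leave-one-out fit: *Prep* was lost in all 6, *Dpp7* without WT1 or WT2, *Dpp9* without any 1 WT library and *Prepl* without WT1 or WT3. All 4 of these changes were under 2-fold.

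The convertase *Pcsk6*, or PACE4, stood at 1.96, 3.11 and 6.42 CPM in KO1–3 and 0.260, 0.244 and 0.323 CPM in WT1–3, a fitted log2 fold change of 3.78 (standard error 0.52). It was low in all WT libraries and passed the filter on low counts through the KO libraries only, so its call is not taken as support. *Furin*, the abundant convertase that activates MMP14 and MMP11, had a log2 fold change of 0.36 with overlapping ranges (adjusted p = 0.136 by edgeR, 0.0602 to 0.447 over the alternatives).

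In the plasminogen system, 9 of 11 genes were tested, 1 was higher and 4 were lower, against 12.1% and 10.6% of all genes tested. Among the genes that fell were *Plau*, which encodes urokinase (−1.59), its receptor *Plaur* (−1.34), and *Serpine2* (−2.43), which encodes an inhibitor of urokinase and thrombin, so that a protease, its receptor and an inhibitor were lower together. *Serpine2* stood at 9.99, 15.6 and 5.00 CPM in KO and 46.6, 51.2 and 67.7 CPM in WT (adjusted p = 0.00592 by edgeR, 1.69e-19 to 0.0281 over the alternatives). *Plau* and *Serpine2* were called in all 6 leave-one-out fits, and *Plaur* only without KO1. The call of *Plau* was not kept in every other alternative (adjusted p = 0.0114 by edgeR, 2.67e-12 to 0.101 over the alternatives). *S100a10*, which binds plasminogen at the surface as a complex with annexin A2, rose by 1.31, a call lost without any 1 WT library.

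Among the ADAMTS proteases, 12 of 19 were tested, 1 was higher and 3 were lower. *Adamts12* (−3.04) and *Adamts5* (−2.24) fell and were called in all 6 leave-one-out fits. *Adamts5*, a proteoglycan-cleaving protease, stood at 15.3, 20.8 and 29.8 CPM in KO and 93.8, 129 and 88.7 CPM in WT (adjusted p = 0.00254 by edgeR, 2.16e-20 to 0.0372 over the alternatives). *Adamts9*, the other gene called lower, held 3 reads in KO against 77 in WT, a pooled ratio of 29.6 (exact 95% interval 9.75 to 147, counting error only), and passed the filter through the WT libraries only, so that it had to differ. *Adamts4*, which also cleaves proteoglycans, rose by 1.03. Of the ADAMs, 9 of 12 were tested. *Adam8* rose by 2.79, with 37.1 CPM in KO1 against 9.09 in KO2 and 7.03 in KO3, while *Adam12* fell by 1.28 and *Adam23* fell by 2.05 on the log2 scale. The calls of *Adamts4*, *Adam8* and *Adam12* were lost without any 1 WT library, and that of *Adam23* also without KO3.

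Of the procollagen-processing genes, 4 of 5 were tested, and the procollagen C-proteinase *Bmp1* (0.84) and its enhancer *Pcolce* (0.73) rose, calls lost without WT1 or WT3 and, for *Pcolce*, also without WT2. Of the cathepsins and cystatins, 8 of 10 were tested, and the protease *Ctsh* (−1.95) and the inhibitor *Cst3* (−1.01) fell, calls lost without KO3, WT1 or WT3 and, for *Ctsh*, also without WT2. Among the 11 surface partners, all tested, 4 rose and 1 fell. *Sdc1*, a heparan sulfate proteoglycan, stood at 380, 329 and 395 CPM in KO1–3 and 115, 116 and 111 CPM in WT1–3, and rose by 1.69 (standard error 0.13, adjusted p = 0.00064 by edgeR, 1.9e-21 to 0.0150 over the alternatives). *Itgb3*, an integrin subunit, rose by 1.62 (adjusted p = 0.00644 by edgeR, 3.79e-10 to 0.0790 over the alternatives). *Cav1*, which encodes caveolin-1, rose by 1.59 (adjusted p = 0.00594 by edgeR, 4.97e-11 to 0.0748 over the alternatives). These calls and that of *Sdc1* were kept in all 6 leave-one-out fits, but those of *Itgb3* and *Cav1* not in every other alternative. *Lrp1*, the endocytic receptor that clears proteases and their inhibitor complexes, rose by 0.99 and was called in 2 of the 6. *Sh3pxd2a*, an invadopodium scaffold, fell by 0.62 and was also called in 2 of the 6.

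**Figure D5:**
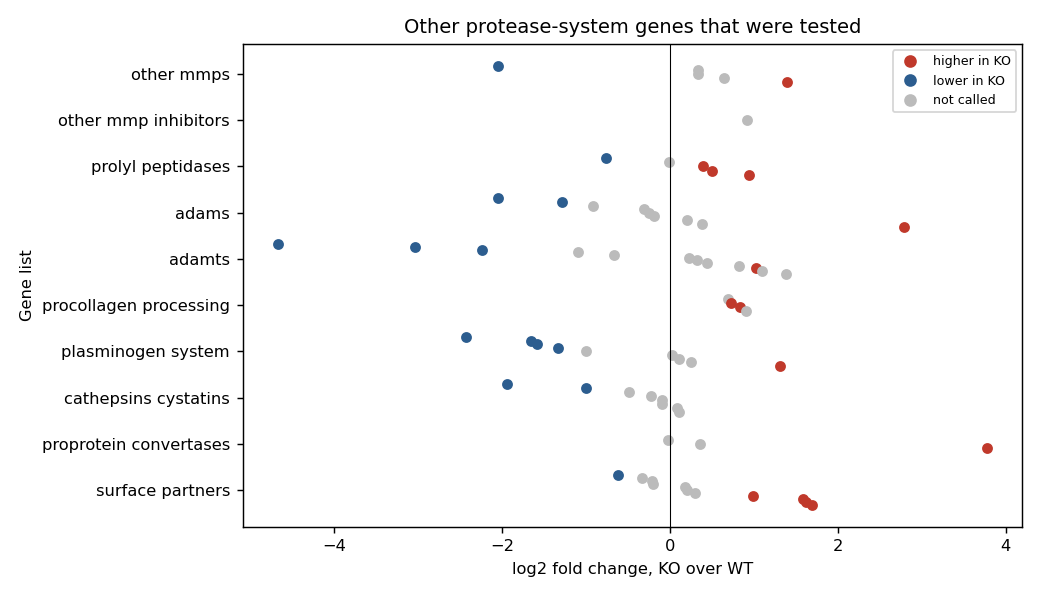
Log2 fold change (KO over WT) of the 67 tested genes of the 10 protease-system lists (red, higher in KO; blue, lower; grey, not called). The 14 higher and 14 lower genes spread over the lists. The plasminogen list holds 4 of the lower genes among its 9 tested, against 10.6% lower over all genes tested. The lists were chosen with earlier results of these data known, so these counts are a description.

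Markers of other cell types were read beside these results, on lists also chosen with earlier results known. Of 12 fibroblast markers, 10 were tested, 6 were higher and 0 lower in KO, against 12.1% and 10.6% of all genes tested, and the median log2 fold change was 1.95. Of the 6, *Ly6a* and *Dpt* were called with each library left out in turn, *Cd34*, *Pi16* and *Osr1* lost the call without WT1 or WT3, and *Pdgfra* without KO3 or any 1 WT library, and *Osr1* passed the filter through KO only. Their summed level was 932.5 to 1690 TPM in KO and 713 to 970.5 TPM in WT, overlapping, and 0 of the 12 were at 3 reads or fewer in every library. *Ly6a*, which encodes SCA-1, stood at 57.6, 84.2 and 33.4 CPM in KO1–3 and 7.98, 8.26 and 9.54 CPM in WT1–3 (log2 fold change 2.76, adjusted p = 0.00236 by edgeR, 2.32e-23 to 0.0208 over the alternatives). *Dpt*, which encodes dermatopontin, stood at 3.78, 56.3 and 35.0 CPM in KO and 0.396 to 0.665 CPM in WT. Its adjusted p was 0.00662 by edgeR and 9.7e-32 to 0.127 over the alternatives, so not every alternative kept the call. *Col3a1*, the most abundant of the list, had 4949 to 8313 CPM in KO and 3423 to 4489 CPM in WT and was not called, and *Thy1* had at most 5 reads in any library. The fibroblast protease *Fap* was thus low in the libraries in which several of these markers were high, and their part in the differences of *Fap*, *Mmp2*, *Mmp14* and *Mmp23* was not tested.

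Of the muscle markers, *Myod1* and *Cdh15* were higher and *Myf5* and *Myf6* lower in KO, and the other 8 were not called. Each of these 4 calls was lost when WT1 or WT3 was left out, those of *Cdh15* and *Myf5* also without KO3 and that of *Myf5* also without WT2, and *Myf6* passed the filter on low counts through WT only. The 6 macrophage markers summed to 1.06 to 1.78 TPM in KO and at most 1.31 TPM in WT, with *Adgre1* and *C1qa* at no more than 2 reads in any library. The 6 endothelial markers summed to 0.0170 to 0.137 TPM in KO and 0.198 to 0.319 TPM in WT, with *Pecam1* and *Emcn* at no more than 3 reads. None of the 2 tested macrophage markers was called, and 1 of the 3 tested endothelial markers, *Kdr*, was called lower, having passed the filter through WT only.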

How the data were processed

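RNA-sequencing libraries of ribosome-depleted RNA came from differentiating C2C12 cells, 3 KO and 3 WT. The processing notes name FastQC, Trim Galore, STAR, featureCounts, StringTie and Salmon. The authors deposited raw read counts per gene, without normalization, and StringTie TPM per gene and library; TPM sharing a gene identifier were summed. Count columns without a use here numbered 0. The methods give a version of Salmon for their poly(A) analysis only. Versions of the other tools, the annotation release and the strand setting are not given in the sources used here. The methods name GRCm39 and the processing notes mm9, but 95.7% of deposited gene starts lay within 1 kb of GENCODE M21, so positions are on GRCm38.

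Counts were filtered (filterByExpr), scaled (TMM) and fitted with edgeR 4.0.16 (R 4.3.3) on genotype alone, with the two-sided quasi-likelihood test, Benjamini-Hochberg adjustment over 14828 genes and a threshold of 0.05. The scripts were tested on simulated data, in which edgeR called 34% of the 2-fold and 81% of the 4-fold changes. A gene that was not called may therefore still differ by 2-fold. Since the libraries may differ by clone, p-values measure only the spread between these libraries. Chi-square per degree of freedom between libraries of the same genotype was 46.6 to 171, and no library repeated another. Intervals cover counting error only. The members and gene lists were chosen with earlier results of these data known. Named were the 9 members, the called genes of each list with the largest changes (up to 3 per direction, or the most abundant gene where none was called), the 4 nearest tested genes on each side of *Fap* and *Mmp23*, the 3 genes most like each, and the most abundant markers; *Furin*, *Lrp1*, *Plaur*, *Mmp9*, *Dpp4*, *Gca*, *Gcg* and the other marker genes with values were added for their known roles or after their values were seen. Alternatives were DESeq2 1.42.0, RLE scaling, no low-count filter, limma 3.58.1 on log2(TPM + 1) for genes reaching a TPM of 1 in 3 or more libraries, a pseudocount of 0.1, no TPM filter, a replicate block, and each library left out. Genes whose names are withheld were counted but are not reported here.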

Additional observations from a re-analysis of the deposited data

How the results depend on the processing

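Of 117 alternative fold changes of the 9 members, 111 moved by less than the spread between replicates, 6 moved further and 0 reversed. Leaving out 1 of 3 libraries can hardly move a fold change beyond that spread. The count therefore says little of the leave-one-out fits, in which some member calls changed. The 6 were those of *Fap* and *Mmp23* in limma, where the pseudocount bounds low values: *Fap* was at −5.37 with log2(TPM + 0.1) and −2.71 with log2(TPM + 1), with or without the TPM filter, and *Mmp23* at 4.95 and 2.22. Members called numbered 5, but 8 with no low-count filter and 2 in limma with no TPM filter. In limma with no TPM filter, 7 pathway genes were called (1 higher, 6 lower) and 1075 of all genes (431 higher, 644 lower). With the TPM filter, 9 pathway genes were higher with a pseudocount of 0.1 and 8 with 1, and 1002 and 1004 of all genes. With each library left out in turn, called pathway genes numbered 10 to 37 (4 to 18 higher, 6 to 19 lower) and called genes overall 933 to 4712 (460 to 2381 higher, 473 to 2331 lower), the lowest without WT1. Libraries with the same replicate number did not deviate together (r = 0.21, −0.11 and −0.20 over 5340 genes), and no library correlated best with its own number. With the replicate number as a block, 2520 genes and 21 pathway genes were called, and 4 members, *Mmp2* not among them. Libraries held at least 33605258 counted reads, and *Fap* in KO and *Mmp23* in WT rest on few of them.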
